A study of Mus musculus with 4 samples.

Results

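The genes described are 47 interferon-stimulated genes, listed by symbol. Of the 47, 46 had a row in the table of 20642 gene symbols, and *Ifi27* had none. All 46 were among the 12705 active genes, that is, genes with reads near the start whose body held, on average, above 4 normalized reads per kb. The lowest mean densities were 11.1 for *Oas3* and 11.7 for *Isg20*, so no member lay just outside this cutoff. Each of the 46 was represented by 1 RefSeq transcript, the one with the highest mean of promoter-proximal reads over the 4 libraries.

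PRO-seq (precision nuclear run-on sequencing) maps RNA polymerases that are engaged in transcription, by letting them extend their transcripts in isolated nuclei with biotin-labelled nucleotides. Livers came from C57BL/6 mice at postnatal day 14. WT mice carried *Hdac3* +/+ and KO mice the conditional and null alleles (F/F or F/-), and both genotypes carried Alb-Cre, a Cre recombinase driven by the albumin promoter, which acts mainly in hepatocytes and leaves *Hdac3* in the other cells of the liver. There were 2 libraries of each genotype (WT1, WT2, KO1 and KO2), each made from nuclei pooled from 9 mice, so single mice cannot be compared. The nuclei were of whole liver, so fewer cells of a type and less transcription per cell cannot be told apart in any value given here.

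HDAC3 is a histone deacetylase that works in corepressor complexes. The reads on *Hdac3* itself did not show the deletion. Its normalized gene body reads were 665 and 648 in WT and 609 and 582 in KO (log2 fold change -0.14, standard error 0.13; limma, adjusted p = 0.413), so the genotypes rest on the labels. The libraries held 16628518 to 26190040 reads on genes, the fewest in KO2. Promoter-proximal windows took 10.3% and 9.38% of them in WT and 13.6% and 17.0% in KO. The promoter-proximal change of all active genes had a median of 0.56 on the log2 scale, against -0.09 in gene bodies, so each promoter-proximal change of a member is to be read against 0.56. With 2 libraries against 2, an exact two-sided permutation test cannot give a p under 0.33.

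Interferons are cytokines that cells release on sensing viral nucleic acids. Type I interferons act through the receptor subunits IFNAR1 and IFNAR2 and the kinases JAK1 and TYK2. These phosphorylate STAT proteins, among them STAT2, which joins IRF9 in the complex ISGF3. ISGF3 binds a promoter element called the ISRE (interferon-stimulated response element), while interferon gamma acts on the GAS element (gamma-activated site). The induced genes encode sensors, antiviral effectors, GTPases, parts of the antigen presentation machinery and members of the signalling chain itself, and hepatocytes, endothelial cells and the immune cells of the liver can all express them.

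The elements bound by these factors can be read in the promoters. RefSeq promoter windows of GRCm38.p6, which cover 250 bases before to 50 bases after a transcription start, were found for 36 of the 46 members. The other 10 (*Dhx58*, *Zbp1*, *Usp18*, *Parp9*, *Parp14*, *Oas2*, *Mx1*, *Mx2*, *Tap2* and *Rtp4*) had no window in the table used. An ISRE core, searched as GAAANNGAAA on both strands, was present in 17 of the 36 windows (47.2%), against 3.44% of all 32851 windows and 3.14% of the 11588 windows of active genes. A GAS, searched as TTCNNNGAA, which reads the same on both strands, was present in 10 windows (27.8%), against 8.3% of all windows and 7.06% of those of active genes. The 2 motifs can overlap. A match is a description of the letters and not a measured binding site. The stretches shown come from members of several roles that rose in at least 1 region, *Irf1* being shown for its GAS. Each is 40 bases of the strand of the gene, 5′ to 3′, with 1 match in capitals, and the ISRE of *Ifit1*, *Ifit3*, *Rsad2* and *Gbp2* is read on the opposite strand.
*Isg15* ISRE (chr4:156200866-156200905, minus strand): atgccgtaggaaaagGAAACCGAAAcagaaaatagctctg
*Ifit1* ISRE (chr19:34640770-34640809, plus strand): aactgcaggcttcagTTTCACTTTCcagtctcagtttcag
*Ifit3* ISRE (chr19:34583358-34583397, plus strand): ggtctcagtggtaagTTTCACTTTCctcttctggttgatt
*Rsad2* ISRE (chr12:26456548-26456587, minus strand): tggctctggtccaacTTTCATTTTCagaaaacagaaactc
*Bst2* ISRE (chr8:71537578-71537617, minus strand): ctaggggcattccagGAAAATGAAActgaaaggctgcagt
*Gbp2* ISRE (chr3:142620589-142620628, plus strand): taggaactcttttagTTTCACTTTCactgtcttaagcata
*Oas3* ISRE (chr5:120777710-120777749, minus strand): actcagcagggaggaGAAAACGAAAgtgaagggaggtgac
*Irf1* GAS (chr11:53769908-53769947, plus strand): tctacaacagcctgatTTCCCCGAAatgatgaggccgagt
The matches began at these distances from the start, counted so that the start is 0: *Isg15* at -72, *Ifit1* at -104, *Ifit3* at -156, *Rsad2* at -120, *Bst2* at -130, *Gbp2* at -59, *Oas3* at -75 and *Irf1* at -90. *Isg15* held 3 overlapping ISRE matches and *Bst2* held 2, of which 1 each is in capitals.

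Most interferon-stimulated genes carried more polymerase over their bodies in KO. Of the 46 members, 25 rose in the gene body and 0 fell (a call needs a log2 fold change beyond 0.6 in size and an adjusted p below 0.05; limma with Benjamini-Hochberg adjustment over the active genes), where 10.4% of the active genes rose and 11.4% fell. At an unadjusted p under 0.05 and with no fold threshold, 38 members were higher and 1 was lower. Among the 12705 active genes, 2504 were higher and 3425 lower at that level. With the thresholds of a call, edgeR and DESeq2 also called 25 members higher and 0 lower. The median log2 fold change of the members was 0.71, against -0.09 for all active genes. Both KO libraries lay above both WT libraries for 40 members, while 27.6% of active genes were separated in this way. For 4 members (*Stat2*, *Irf3*, *Dtx3l* and *Isg20*) both KO libraries lay lower, as they did for 5442 of the 12705 active genes. The median member was 0.77 and 0.75 higher in KO1 than in WT1 and WT2, and 0.63 and 0.54 higher in KO2, on the log2 scale. Between WT1 and WT2 it differed by -0.02 and between KO1 and KO2 by 0.21.

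At the promoter-proximal region, the 50 bp window near the start where paused polymerase collects, 35 members rose and 0 fell, beside 25.8% of active genes that rose and 2.2% that fell. No member was lower at an unadjusted p under 0.05 in limma, and edgeR called 34 higher and 0 lower and DESeq2 29 and 0. The median member changed by 1.22, or 0.66 above the median active gene. Both KO libraries were above both WT libraries for 41 members, as they were for 61.9% of active genes. When the libraries were scaled on the promoter-proximal reads themselves, so that the median active gene did not change, 16 members rose and 0 fell, with 4.99% of active genes rising. The same scaling of gene bodies gave 28 members and 12% of active genes. The promoter-proximal count depended on single libraries: it was 9 without KO2, 9 without WT2, 18 without WT1 and 33 without KO1. The gene body count stayed between 21 and 28 in the same 4 fits. In all, 24 members rose in both regions, 1 (*Oas1a*) in the gene body alone, 11 at the promoter-proximal region alone, and 10 in neither. This overlap was not counted over all active genes, so it is not read as particular to the members.

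**Figure D1:**
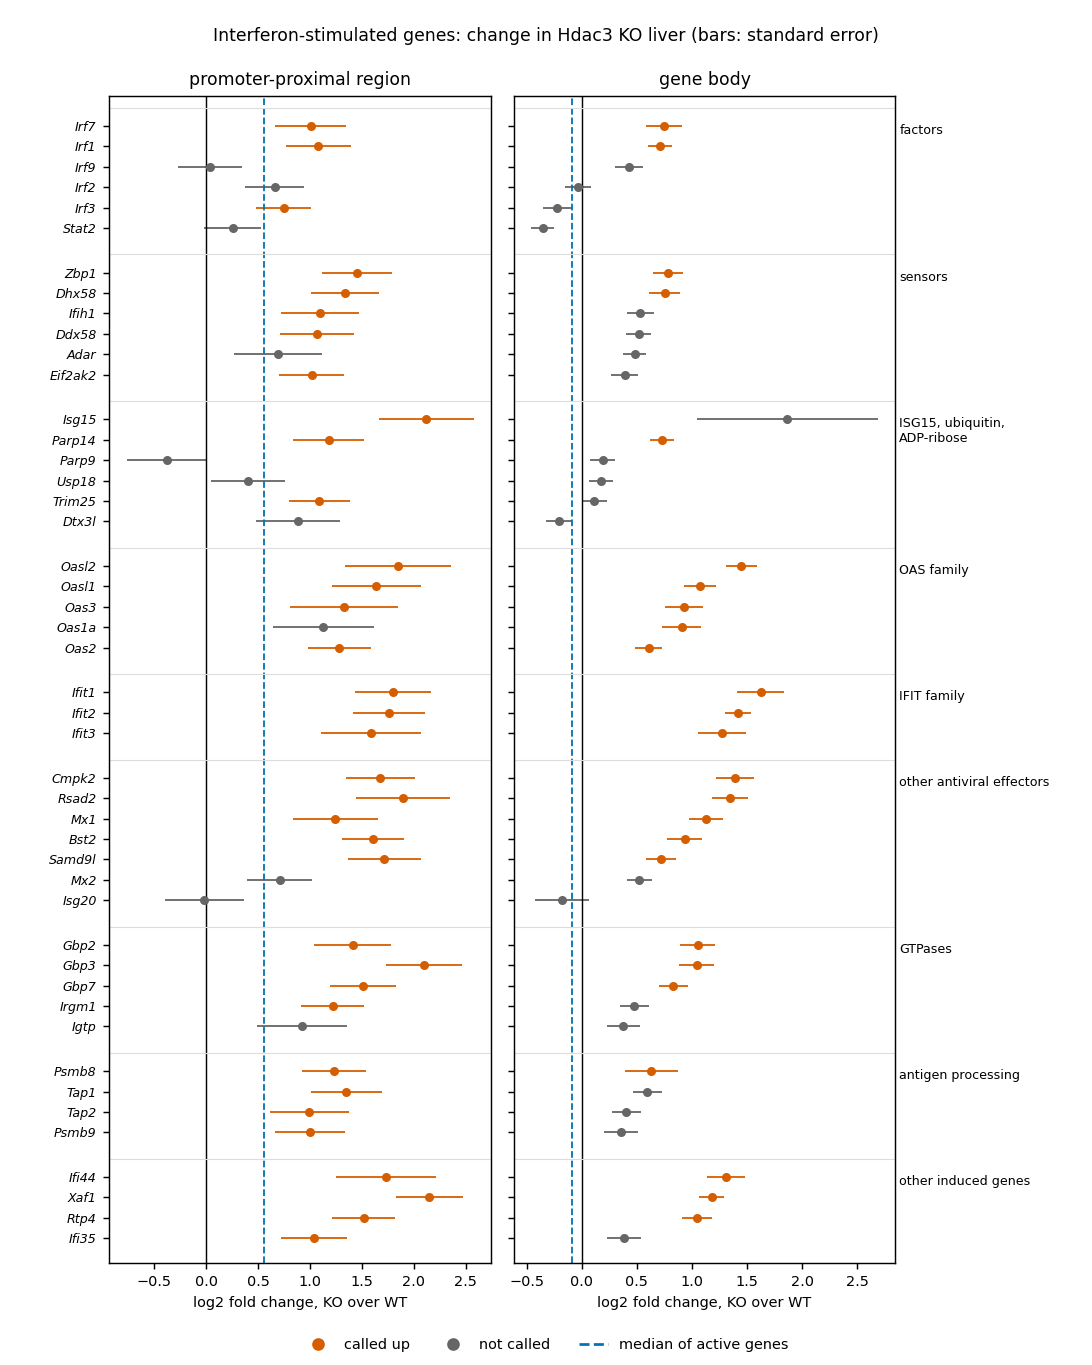
Log2 fold change (KO over WT) of the 46 members in the promoter-proximal region (left) and the gene body (right), grouped by role; points are limma estimates from 2 libraries a genotype, bars are standard errors, orange marks members called up and the dashed line is the median of 12705 active genes. Orange points number 35 on the left and 25 on the right, and the *Oas* and *Ifit* genes are orange throughout in the gene body.

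Among the transcription factors of the response, *Irf1* and *Irf7* rose in both regions, while *Stat2* and *Irf9* were called in neither. In the gene body 2 of the 6 factors rose, at the promoter-proximal region 3, and 0 with scaling within that region. Counts in this and the later role groups are to be read beside all active genes. Of those, 10.4% rose in the gene body, 25.8% at the promoter-proximal region, and 4.99% there with scaling within it. *Irf7* encodes the factor that amplifies type I interferon production, and *Irf1* a factor induced by interferon gamma. *Irf1* gene body reads were 1572 and 1662 in WT and 2674 and 2602 in KO, and its promoter-proximal reads 188 and 191 in WT and 350.1 and 462 in KO. *Irf7* gene body reads were 197 and 234 in WT and 394 and 331 in KO, and its promoter-proximal reads 102 and 65 in WT and 152 and 179 in KO. For both genes the KO libraries lay above the WT libraries in each region. The gene body changes were 0.71 (standard error 0.11; limma, adjusted p = 1.42e-05) for *Irf1* and 0.75 (standard error 0.17; limma, adjusted p = 8.40e-04) for *Irf7*. Without KO1 the change of *Irf7* was 0.62 and was not called (limma, adjusted p = 0.0655). *Irf3*, whose product relays signals from nucleic acid sensors and is made without interferon, had promoter-proximal reads of 3561 and 2934 in WT and 5524 and 5329 in KO, a change of 0.75 that passed the test and stands 0.19 above the median active gene. Its gene body reads were 734 and 868 in WT and 673 and 697 in KO, with both KO libraries lower (-0.22; limma, adjusted p = 0.188).

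*Stat2* and *Irf9* encode the ISGF3 subunits that are specific to type I and type III signalling. *Stat2* gene body reads were 4507 and 4792 in WT and 3689 and 3585 in KO, lower in both KO libraries, a change of -0.35 (standard error 0.11; limma, adjusted p = 0.0101) that stayed under the fold threshold. *Irf9* gene body reads were 747 and 750 in WT and 1095 and 926 in KO, higher in both KO libraries, a change of 0.43 (standard error 0.13; limma, adjusted p = 0.00926), also under the threshold. *Irf2*, a factor that competes with IRF1, was at -0.03 in the gene body with overlapping libraries. *Irf3*, *Stat2* and *Irf2* had the highest promoter-proximal densities of all members in WT. The promoter-proximal reads of *Stat2* were 1329 and 1146 in WT and 1236 and 1757 in KO, and those of *Irf2* were 834 and 436 in WT and 799.8 and 1134 in KO, and in both genes the libraries of the genotypes overlapped.

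The sensors of viral nucleic acid were higher in the gene body in both KO libraries for all 6 genes, but 2 passed the fold threshold. *Dhx58* encodes LGP2, a helicase that tunes RNA sensing, and *Zbp1* a sensor of Z-form nucleic acid that can start cell death. *Zbp1* gene body reads were 466 and 567 in WT and 955 and 818 in KO (log2 fold change 0.78). *Dhx58* gene body reads were 368 and 358 in WT and 626 and 598 in KO (log2 fold change 0.75). Both rose, with standard errors of 0.14 and 0.14. *Ifih1* and *Ddx58* encode MDA5 and RIG-I, the cytosolic sensors of double-stranded RNA, *Eif2ak2* encodes PKR, which halts translation, and *Adar* an enzyme that edits double-stranded RNA. *Ifih1* gene body reads were 1621 and 1335 in WT and 2309 and 1957 in KO. *Ddx58* gene body reads were 1669 and 1814 in WT and 2677 and 2321 in KO. *Eif2ak2* gene body reads were 1541 and 1748 in WT and 2354 and 1962 in KO. These 3 genes and *Adar* were 0.39 to 0.53 higher with adjusted p between 7.90e-04 and 0.0119 (limma), under the fold threshold of 0.6 in each case. With median-of-ratios scaling *Ifih1* passed it (0.61).

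At the promoter-proximal region 5 of the 6 sensors rose, or 2 (*Dhx58* and *Zbp1*) with scaling within that region. *Zbp1* promoter-proximal reads were 84.9 and 70 in WT and 179 and 252 in KO. *Dhx58* promoter-proximal reads were 96.4 and 92 in WT and 262 and 219 in KO. *Ifih1* promoter-proximal reads were 47.0 and 32 in WT and 81.7 and 86.5 in KO. The KO libraries were above the WT libraries in each of these. *Ddx58* promoter-proximal reads were 55.1 and 58 in WT and 116 and 123 in KO. *Eif2ak2* promoter-proximal reads were 171 and 174 in WT and 301 and 405 in KO. The changes of the 5 genes lay between 1.01 and 1.45. *Adar*, with at most 34.9 normalized reads in a library, was not called.

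The group around ISG15 was split. ISG15 is a ubiquitin-like protein that is joined to other proteins, USP18 removes it and damps receptor signalling, TRIM25 is a ubiquitin ligase that acts on RIG-I, and DTX3L, PARP9 and PARP14 belong to the ADP-ribosylation machinery. In the gene body 1 of the 6 rose, beside 10.4% of active genes. *Parp14* gene body reads were 3576 and 3583 in WT and 6432 and 5489 in KO, a change of 0.73 (standard error 0.11; limma, adjusted p = 1.04e-05). *Parp14* promoter-proximal reads were 73.4 and 77 in WT and 151 and 196 in KO, a change of 1.18. *Dtx3l* and *Parp9*, its neighbours on chromosome 16, were at -0.21 and 0.19 in the gene body and neither passed the test. *Usp18*, with 1595 and 1527 in WT and 1805 and 1719 in KO gene body reads, changed by 0.17 and did not pass either.

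*Isg15* had the second largest promoter-proximal change of the members but few gene body reads. Its promoter-proximal reads were 8.03 and 4 in WT and 30.8 and 25.8 in KO, a change of 2.12 (standard error 0.46; limma, adjusted p = 1.18e-04) that held with scaling within the region (1.60). The gene is short, and its gene body region after the first 1 kb was 395 bp long, with 5.74 and 0 in WT and 11.7 and 6.07 in KO normalized reads. *Trim25* showed the reverse arrangement, with the highest gene body density of all members in WT and no call there. *Trim25* gene body reads were 4538 and 5353 in WT and 5559 and 5129 in KO (0.12; limma, adjusted p = 0.444). Its promoter-proximal reads were 384 and 310 in WT and 555 and 973 in KO, a change of 1.09, higher in KO2 than in KO1, and not called with scaling within that region. Of this group 3 members rose at the promoter-proximal region, and 1 (*Isg15*) with scaling within it.

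All 5 members of the OAS family rose in the gene body. The OAS enzymes make 2′-5′-linked oligoadenylates, which switch on RNase L, and the OASL proteins are their relatives. *Oasl2* gene body reads were 449.8 and 370 in WT and 1237 and 1005 in KO, a change of 1.45 (standard error 0.14; limma, adjusted p = 2.09e-08). *Oasl1* gene body reads were 334 and 338 in WT and 792 and 635 in KO (1.08). *Oas1a* gene body reads were 148 and 152 in WT and 319 and 249 in KO (0.91). In these 3 genes the libraries of the genotypes did not overlap. *Oas3* gene body reads were 207 and 157 in WT and 353 and 334 in KO (0.93). *Oas2* gene body reads were 656 and 714 in WT and 1098 and 991 in KO, a change of 0.61 that just passed the fold threshold and was 0.53 without KO1 and 0.55 without WT1. The *Oas* genes are near-identical copies in part, so reads could be split or lost among them.

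Promoter-proximal reads of the OAS family were few except at *Oas2*. *Oas2* promoter-proximal reads were 316 and 195 in WT and 581 and 630.1 in KO, a change of 1.28, the only 1 of the family that was also called with scaling within the region. *Oasl1* promoter-proximal reads were 16.1 and 8 in WT and 26.5 and 53.1 in KO, and the KO libraries differed by more than the WT libraries. *Oasl2* promoter-proximal reads were 2.29 and 3 in WT and 9.55 and 15.2 in KO. *Oas3* promoter-proximal reads were 2.29 and 3 in WT and 5.30 and 12.1 in KO. These 4 genes rose, with changes from 1.28 to 1.85. *Oas1a* had 4.59 and 6 in WT and 9.55 and 16.7 in KO reads and did not pass the test (limma, adjusted p = 0.0636).

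The 3 *Ifit* genes, whose products bind foreign RNA and block its translation, rose in both regions. *Ifit1* gene body reads were 59.7 and 66 in WT and 223 and 172 in KO. *Ifit2* gene body reads were 692 and 652 in WT and 1884 and 1714 in KO. *Ifit3* gene body reads were 84.9 and 109 in WT and 291 and 188 in KO. The lowest KO library was above the highest WT library in each gene. The gene body changes were 1.62 (standard error 0.21; limma, adjusted p = 1.70e-06) for *Ifit1*, 1.42 (standard error 0.12; limma, adjusted p = 2.10e-09) for *Ifit2* and 1.27 (standard error 0.22; limma, adjusted p = 4.33e-05) for *Ifit3*. *Ifit1* promoter-proximal reads were 35.6 and 33 in WT and 128 and 115 in KO. *Ifit2* promoter-proximal reads were 56.2 and 46 in WT and 154 and 199 in KO. *Ifit3* promoter-proximal reads were 5.74 and 4 in WT and 14.9 and 18.2 in KO. These correspond to changes of 1.80, 1.76 and 1.59, of which the first and the second were called with scaling within the region as well. The 3 genes lie together on chromosome 19 (chr19:34550550-34650009), and *Ifit1* and *Ifit3* hold the ISRE matches printed above.

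The other antiviral effectors rose in the gene body for 5 of 7 genes. *Rsad2* encodes viperin, which makes a chain-terminating nucleotide, and *Cmpk2* beside it encodes a nucleotide kinase. *Rsad2* gene body reads were 357 and 265 in WT and 895 and 686 in KO (1.35). *Cmpk2* gene body reads were 140 and 128 in WT and 373 and 333 in KO (1.39). The pair rose with standard errors of 0.16 and 0.17 (limma, adjusted p = 4.13e-07 and 6.31e-07). *Bst2* encodes tetherin, which holds virus particles at the cell surface, *Mx1* and *Mx2* encode dynamin-like GTPases, and *Samd9l* encodes an inhibitor of translation in infected cells. *Mx1* gene body reads were 257 and 218 in WT and 564 and 478 in KO (1.13). *Bst2* gene body reads were 201 and 235 in WT and 448 and 387 in KO (0.94). *Samd9l* gene body reads were 1006 and 900 in WT and 1834 and 1345 in KO (0.72). All 3 were higher in both KO libraries, *Samd9l* more so in KO1 than in KO2. Without KO1 the change of *Samd9l* was 0.50, under the threshold. *Mx2* gene body reads were 1414 and 1393 in WT and 2154 and 1886 in KO, a change of 0.52 under the fold threshold that passes it (0.60) with median-of-ratios scaling. The *Mx1* and *Mx2* rows are RefSeq non-coding records. *Isg20*, which encodes an RNA exonuclease, had 68.8 and 71 in WT and 65.8 and 57.7 in KO gene body reads and was not called in either region.

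Promoter-proximal reads of the same group rose for 5 of 7 genes, or 4 with scaling within the region. *Bst2* promoter-proximal reads were 279 and 215 in WT and 783 and 717 in KO, a change of 1.61 (standard error 0.30; limma, adjusted p = 6.61e-06). *Cmpk2* promoter-proximal reads were 89.5 and 59 in WT and 176 and 313 in KO (1.68), and *Samd9l* promoter-proximal reads 68.8 and 37 in WT and 168 and 169 in KO (1.71). In *Cmpk2* the KO2 library was well above KO1. *Rsad2* promoter-proximal reads were 6.88 and 6 in WT and 22.3 and 31.9 in KO (1.897). *Mx1* promoter-proximal reads were 17.2 and 19 in WT and 41.4 and 47.1 in KO (1.24). *Mx1* is the member of these 5 that was not called with scaling within the region.

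All 5 GTPases that attack intracellular pathogens were higher in both KO libraries in both regions. In the gene body 3 of the 5 were called, beside 10.4% of active genes, and at the promoter-proximal region 4, beside 25.8%. The guanylate-binding proteins GBP2, GBP3 and GBP7 come from a cluster on chromosome 3 (chr3:142530336-142638008) and all rose in both regions. *Gbp2* gene body reads were 262 and 202 in WT and 493 and 463 in KO (1.05). *Gbp3* gene body reads were 242 and 227 in WT and 547 and 428 in KO (1.04). *Gbp7* gene body reads were 525 and 501 in WT and 1012 and 826 in KO (0.83). Their standard errors were 0.13 to 0.16, and the genotypes did not overlap. *Gbp3* promoter-proximal reads were 33.3 and 25 in WT and 123 and 131 in KO, a change of 2.098 (standard error 0.37; limma, adjusted p = 1.87e-06). *Gbp7* promoter-proximal reads were 151 and 135 in WT and 421 and 398 in KO (1.51). *Gbp2* promoter-proximal reads were 40.2 and 34 in WT and 103 and 97.2 in KO (1.41). *Gbp3* and *Gbp7* were also called with scaling within the region. The *Gbp* genes are similar in sequence, so reads could be split among them.

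The immunity-related GTPases *Igtp* and *Irgm1* were higher in both KO libraries in the gene body but under the fold threshold. *Irgm1* gene body reads were 762 and 651 in WT and 1054 and 912 in KO (0.48). *Igtp* was at 0.38, and its locus overlaps *Irgm2* on the same strand, so its reads cannot be assigned with certainty. *Irgm1* promoter-proximal reads were 305 and 169 in WT and 454 and 618 in KO, a change of 1.22 that passed the test with the deposited scaling but not with scaling within the region.

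The genes of antigen processing rose at the promoter-proximal region, while 1 of 4 was called in the gene body, beside 10.4% of active genes. *Psmb8* and *Psmb9* encode subunits of the immunoproteasome, and *Tap1* and *Tap2* the transporter that brings peptides to MHC class I molecules. The 4 genes lie side by side on chromosome 17 (chr17:34182030-34216321). At the promoter-proximal region all 4 were called, and 2 (*Psmb8* and *Tap1*) also with scaling within it. *Psmb8* gene body reads were 52.8 and 77 in WT and 105 and 94.1 in KO, a change of 0.63 (standard error 0.24; limma, adjusted p = 0.0434). The call of *Psmb8* was lost without KO1 (0.55), KO2 (0.71) or WT1 (0.36) and in edgeR (adjusted p = 0.051) and DESeq2 (adjusted p = 0.161). *Tap1* gene body reads were 484 and 529 in WT and 831 and 706 in KO, a change of 0.597 (standard error 0.14; limma, adjusted p = 0.00105), just under the fold threshold. *Tap2* gene body reads were 504 and 512 in WT and 701 and 645 in KO (0.40), and *Psmb9* gene body reads 267 and 276 in WT and 331 and 367 in KO (0.36). No member of this group had overlapping gene body values between the genotypes. *Psmb8* promoter-proximal reads were 184 and 158 in WT and 350.1 and 460 in KO. *Tap1* promoter-proximal reads were 83.8 and 72 in WT and 200.5 and 199 in KO. *Psmb9* promoter-proximal reads were 108 and 70 in WT and 135 and 228 in KO. *Tap2* differs in its replicates, with promoter-proximal reads of 22.9 and 48 in WT and 90.2 and 50.1 in KO. The changes of the 4 genes ran from 0.99 to 1.35.

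Of the remaining induced genes, *Ifi44*, *Xaf1* and *Rtp4* rose in both regions. XAF1 is a pro-apoptotic protein, RTP4 binds foreign RNA and chaperones receptors, and the roles of IFI44 and IFI35 are less settled. *Xaf1* gene body reads were 1115 and 1143 in WT and 2611 and 2508 in KO, a change of 1.18 (standard error 0.11; limma, adjusted p = 1.18e-08). *Ifi44* gene body reads were 148 and 135 in WT and 397 and 313 in KO (1.31). *Rtp4* gene body reads were 661 and 842 in WT and 1685 and 1407 in KO (1.04). All 3 were higher in both KO libraries, and *Rtp4* had the second highest gene body density of the members in WT. *Xaf1* promoter-proximal reads were 110.1 and 73 in WT and 364 and 443 in KO, a change of 2.15 (standard error 0.32; limma, adjusted p = 1.10e-08), the largest of the members. *Rtp4* promoter-proximal reads were 243 and 237 in WT and 671 and 706 in KO (1.52). *Ifi44* promoter-proximal reads were 4.59 and 4 in WT and 18.0 and 15.2 in KO (1.73). *Xaf1* and *Rtp4* were also called with scaling within the region. *Ifi35* gene body reads were 313 and 376 in WT and 412 and 487 in KO (0.38; limma, adjusted p = 0.051), and its promoter-proximal reads were 168 and 158 in WT and 293 and 383 in KO (1.04), which passed the test with the deposited scaling only.

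**Figure D2:**
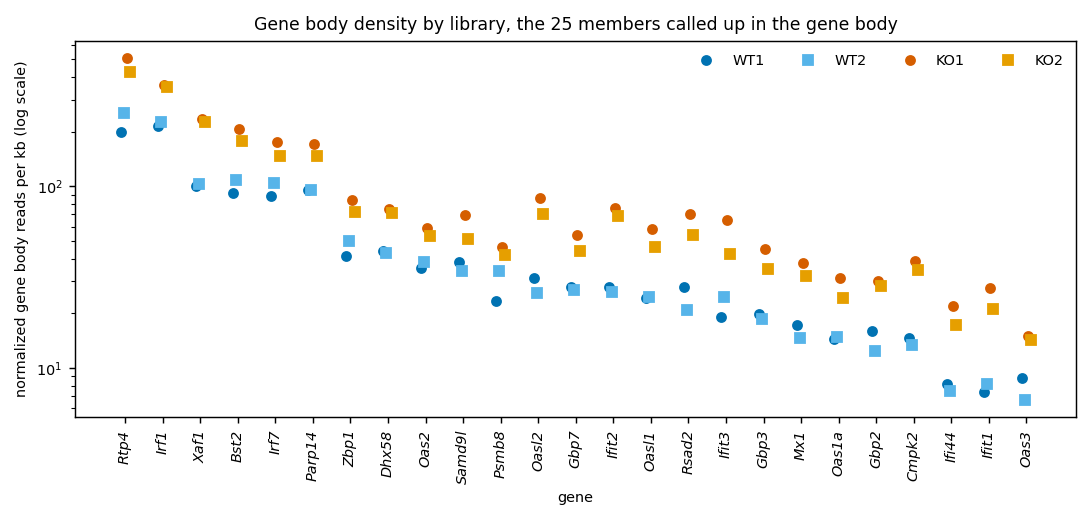
Normalized gene body reads per kb (log scale) in each of the 4 libraries for the 25 members called up in the gene body, ordered by their WT mean; circles are replicate 1 and squares replicate 2, blue WT and orange KO. Both KO libraries lie above both WT libraries in each of the 25 genes.

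The pausing index divides polymerase near the start by polymerase in the body, and it was not called for any member. Of the 46 members 0 changed in either direction (limma on the log2 ratio), while 11.2% of active genes rose and 0.543% fell. At an unadjusted p under 0.05, 8 of the 46 members were higher and 0 lower, beside 4278 and 159 of the 12705 active genes. No other tool was run on the ratio. The count called up was 9 when KO1 was left out. The median member changed by 0.55 against 0.61 for all active genes, and 16 members lay above that median. For the 3 called members with the largest gene body changes the ratio changed by 0.18 (*Ifit1*, standard error 0.38), 0.40 (*Oasl2*, standard error 0.46) and 0.34 (*Ifit2*, standard error 0.40). The highest values were 1.09 for *Dtx3l* (standard error 0.43; limma, adjusted p = 0.0701) and 1.05 for *Gbp3* (standard error 0.39; limma, adjusted p = 0.0516). With scaling within each region the median member was at -0.08, so the size of the change in this ratio depends on the scaling.

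**Figure D3:**
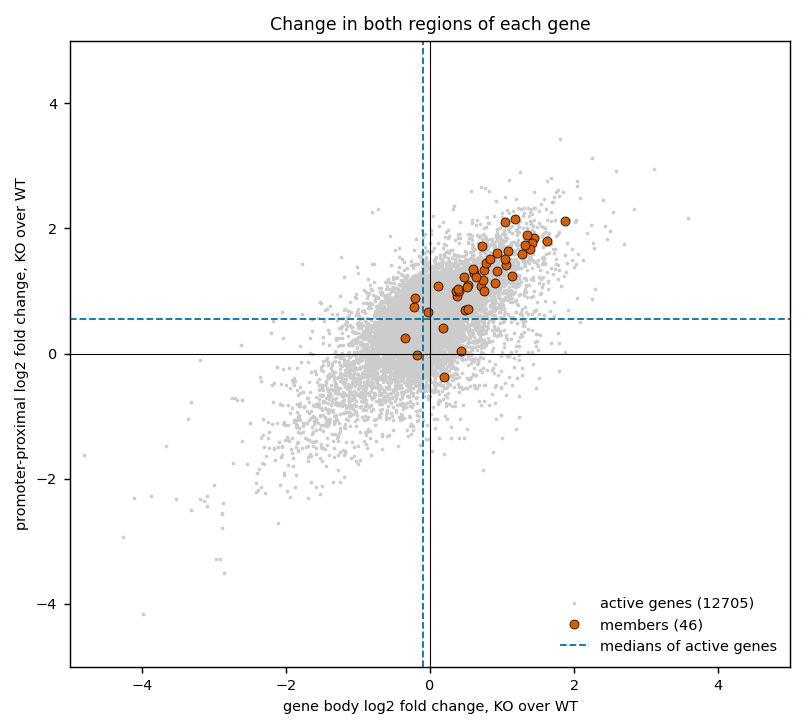
Gene body (x axis) against promoter-proximal (y axis) log2 fold change, KO over WT, for 12705 active genes (grey) and the 46 members (orange); dashed lines are the medians of active genes, -0.09 and 0.56. Of the members, 39 lie above both dashed lines. The share of active genes above both lines was not counted.

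In level the members lay near the median active gene. Their median WT gene body density was 44.8 normalized reads per kb, against 37.7 for all active genes, and their median WT promoter-proximal value was 70.1 normalized reads against 92.1. Per kb, the highest gene body densities in WT were 249 for *Trim25*, 227 for *Rtp4* and 219.7 for *Irf1*. *Trim25* had 228 and 269 normalized reads per kb in WT1 and WT2, *Rtp4* 200 and 255, and *Irf1* 214 and 226, so these neighbours in the order overlapped. In KO the order changed, with 510 and 426 for *Rtp4* in KO1 and KO2 above 279 and 258 for *Trim25*. Summed over the 46 members, gene body density was 3070 and 3224 in WT and 4869 and 4336 in KO.

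Members that are neighbours in the genome are not independent of each other. Joined at gaps of up to 100 kb, 21 members fell into 8 clusters, and 15 of these rose in the gene body, as did 10 of the 25 other members. The clusters of *Rsad2* and *Cmpk2*, of the *Ifit* genes, of the *Gbp* genes, of *Oasl1* and *Oasl2* and of *Oas2* and *Oas3* rose as a whole. In the cluster of *Parp14*, *Dtx3l* and *Parp9* gene body changes ran from -0.21 to 0.73.

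Members with and without an ISRE core in the promoter window were compared as a description, with no test. The 17 members with a match had a median gene body change of 0.91, with 9 called, and the 19 members with a window and no match a median of 0.63, with 10 called. At the promoter-proximal region the medians were 1.33 and 1.09, with 13 and 15 called. The values of the 2 groups overlapped, since *Stat2* (-0.35) and *Irf2* (-0.03) hold a match and *Oasl2* (1.45) and *Cmpk2* (1.39) do not within this window. For *Irf9*, *Psmb8* and *Psmb9*, counted as having no match, the window belongs to another start. That start lies 414, 405 and 434 bases from the start of the transcript used, so the sequence at the latter was not fully searched.

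Links to active enhancers were counted in the same way. Among 2282 intergenic enhancers called by the authors from the pooled reads, 3 members (*Irf1*, *Irf2* and *Samd9l*) were named as the closest gene, 6.52% of the members against 10.9% of active genes. Within 50 kb of an enhancer were 2 members (*Irf1* and *Irf2*), 4.35% against 9.83%. Links from the 4DGenome collection of chromatin contacts named 28 members (60.9%), against 75.8% of active genes. Per the authors, this collection includes many contacts seen in tissues or conditions besides liver. Some of its links join different chromosomes, such as *Adar* on chromosome 3 and an enhancer on chromosome 1. The enhancer at *Irf1* (chr11:53762496-53765204 of mm10) is also listed in FANTOM5 and lies 4810 bp from the start of the gene. The list holds no value for single libraries, so no change at these enhancers was computed.

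The upstream genes of the pathway were called in the gene body about as often as active genes in general, but most lay above the median active gene. Of 37 genes listed, 28 were active, and 3 of these rose in the gene body and 0 fell, where 10.4% of active genes rose. Their median was 0.27, against -0.09 for all active genes, and 22 of the 28 lay above the median active gene. At an unadjusted p under 0.05, 13 were higher and 4 lower, beside 2504 and 3425 of the 12705 active genes. At the promoter-proximal region 12 rose and 0 fell, with a median of 0.68, beside 25.8% of active genes that rose, and with scaling within the region 1 gene rose, beside 4.99%. *Tlr4*, the receptor for bacterial lipopolysaccharide, had gene body reads of 494 and 455 in WT and 795 and 718 in KO (0.67). *Tlr9*, a sensor of unmethylated DNA, had gene body reads of 39.0 and 67 in WT and 77.4 and 94.1 in KO (0.73). Both genes rose in the gene body.

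None of the receptors passed the fold threshold. In the gene body, *Ifnar1* was at 0.06, *Ifnar2* at 0.47, *Ifngr1* at -0.11, *Ifngr2* at 0.25 and *Il10rb*, which pairs with the receptor of interferon lambda, at 0.48. Of the kinases, *Jak1* was at 0.29, *Jak2* at 0.38 and *Tyk2* at 0.17, and *Stat3* was at -0.30. The promoter-proximal regions that rose included those of *Ifnar1*, *Ifnar2*, *Tyk2*, *Socs1*, *Socs3*, *Tlr3*, *Tlr4*, *Tlr9*, *Myd88*, *Ticam1* and *Traf3*. *Myd88*, the adaptor of most Toll-like receptors, was the 1 called with scaling within the region, with promoter-proximal reads of 287 and 316 in WT and 827 and 872 in KO and gene body reads of 137 and 127 in WT and 151 and 146 in KO. The pausing index rose in 2 of the 28 genes, beside 11.2% of active genes. Of the interferons themselves only *Ifng* had a row, and with 4.59 and 8 in WT and 11.7 and 6.07 in KO gene body reads it was not active.

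The other interferon-stimulated genes, a second list of 52 with 48 active, moved in the direction of the members. That list was chosen with earlier results of these data known, so it is no independent check. Of the 48, 20 rose in the gene body and 0 fell, beside 10.4% of active genes that rose and 11.4% that fell. The median was 0.48, against -0.09 for all active genes. At an unadjusted p under 0.05, 32 were higher and 0 lower, beside 2504 and 3425 of the 12705 active genes. At the promoter-proximal region 32 rose and 0 fell, beside 25.8% of active genes that rose and 2.2% that fell. The median there was 1.11, against 0.56 for all active genes. With scaling within the region 12 rose, beside 4.99% of active genes. The largest gene body changes were at *Cxcl10* and *Cxcl9*, neighbouring genes of chemokines that draw T cells. *Cxcl10* gene body reads were 24.1 and 30 in WT and 88.0 and 147 in KO (2.04). *Cxcl9* gene body reads were 21.8 and 19 in WT and 66.8 and 71.4 in KO (1.71). The next were *Apol9a* (1.48), *Tgtp2* (1.48), *Gbp4* (1.34) and *Apol9b* (1.22). *Apol9a* and *Apol9b* are near-identical copies, as are *Tgtp2* and its neighbour *Tgtp1*, and their reads may be shared.

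Markers of liver cell types moved between the genotypes as well. Of all active genes, 10.4% rose and 11.4% fell in the gene body, and 25.8% rose and 2.2% fell at the promoter-proximal region. Summed gene body density per kb of 6 hepatocyte markers (*Alb*, *Apoa1*, *Apoa2*, *Apob*, *Ttr* and *Fgb*) was 23994 and 25050 in WT and 10942 and 11210 in KO, with 3 of 6 lower by the test. Most of the difference in that sum came from *Apoa1*, with a mean density of 12597 in WT and 3700 in KO (-1.76). *Apoa2* (-1.13) and *Alb* (-0.89) also fell, while *Apob* (-0.54), *Ttr* (-0.30) and *Fgb* (-0.28) did not pass the fold threshold. Of 6 liver endothelial markers 4 rose in the gene body and 6 at the promoter-proximal region, or 5 there with scaling within that region. Their summed gene body density was 802 and 830 in WT and 1399 and 1293 in KO. All 4 stellate cell markers rose in the gene body, with sums of 67.4 and 78.1 in WT and 197 and 187 in KO. At the promoter-proximal region 3 of the 4 rose, while *Reln* was at -0.26, not called there, and called lower with scaling within that region. The 7 markers of Kupffer cells and other macrophages with a row, among them *Clec4f* (0.09), gave 952 and 985 in WT and 1204 and 1010 in KO, and 0 of 7 was called in either region (unadjusted p under 0.05 for 2 higher and 0 lower in the gene body; limma). The changes of the endothelial markers, 0.55 to 0.85 in the gene body, spanned the median of the members.

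Among 9 other leukocyte markers with a row, 4 rose and 1 fell in the gene body, beside 10.4% and 11.4% of active genes. Their summed gene body density was 108 and 131 in WT and 213 and 145 in KO. *Siglech*, a marker of plasmacytoid dendritic cells, which release type I interferon, had gene body reads of 72.3 and 67 in WT and 371 and 304 in KO (2.25, standard error 0.19; limma, adjusted p = 2.55e-09). *Cd3e*, *Klrd1* and *Itgax* rose as well. *Nkg7* was at 0 in WT1 and KO2, and its gene body held 1 read in WT2 and 4 in KO1. Its mean density was 4.59 per kb in WT and 19.5 in KO, so these few reads add to the sum of KO1. The 3 erythroid markers with a row fell in the gene body, with sums of 75.3 and 85.5 in WT and 29.4 and 32.8 in KO. At the promoter-proximal region 0 of the 3 were called, and 1 (*Alas2*) was above 0. The 4 cholangiocyte markers summed to 20.7 and 29.7 in WT and 18.1 and 16.3 in KO, but did not move together. *Sox9* fell in the gene body (-1.33), with a mean density of 18.3 in WT and 7.07 in KO. *Krt19* was at 0.83 in the gene body, not called, and rose at the promoter-proximal region (1.33). *Krt7* and *Epcam* were not active. The part of these cell types in the change of the interferon-stimulated genes was not tested.

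**Figure D4:**
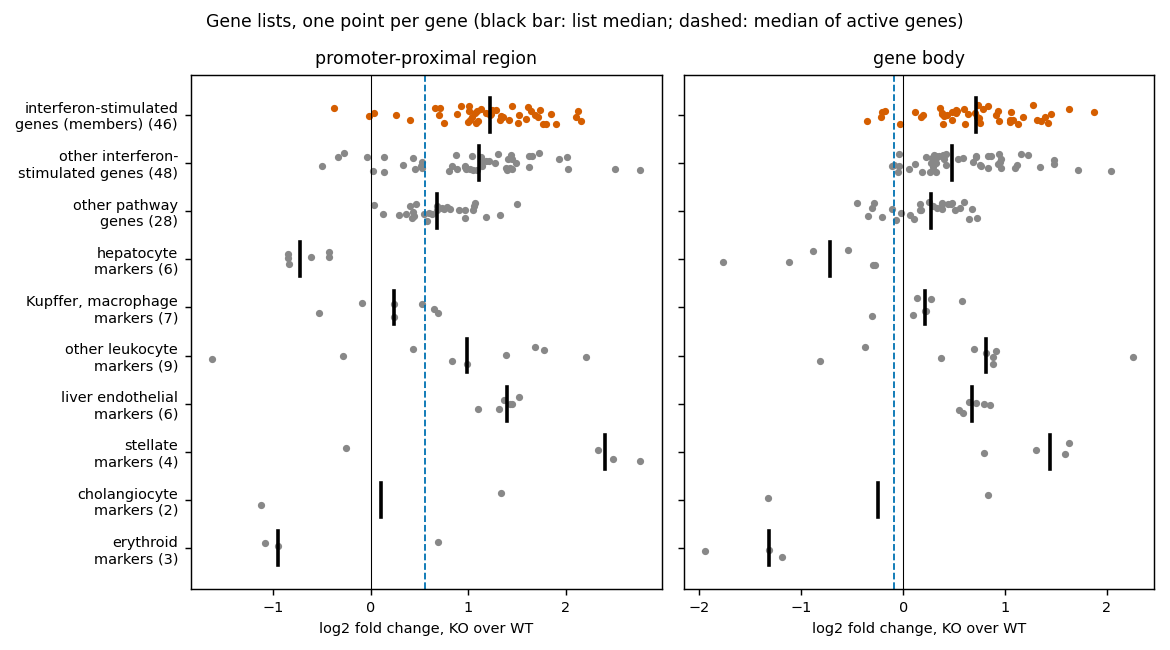
Log2 fold change (KO over WT) of each active gene in the promoter-proximal region (left) and the gene body (right) for the members, the 2 other interferon lists and 7 lists of cell type markers, with the number of genes in brackets; black bars are list medians and dashed lines the medians of active genes. In the gene body the members have a median of 0.71, the endothelial markers 0.68, the stellate markers 1.44 and the hepatocyte markers -0.71.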

How the data were processed

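PRO-seq libraries of WT and *Hdac3* KO liver (2 each) were grouped by their labels. Per the labels and the study's methods, the authors trimmed reads with cutadapt, mapped them with Bowtie2 to mm10, dropped reads on ribosomal RNA loci or with a mapping quality under 10, and counted reads on the coding strand with NRSA. The promoter-proximal region is the 50 bp window with most reads within 500 bp of the start, and the gene body runs from 1 kb after the start to the end of the transcript. The deposited values of WT2 are read counts, because its scaling factor is 1. Those of WT1, KO1 and KO2 are deposited as normalized signal, the counts times 1 factor per library (1.15, 1.06 and 1.52), and the deposited densities are signal per bp. Whole reads were recovered for 100% of the 41640 values of each library (tolerance 0.001). The authors' enhancer list, made from pooled reads, gives positions and gene links, and its distances are in bp.

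Each symbol was represented by its transcript with most promoter-proximal reads. Log2(normalized reads + 1) was compared over 12705 active genes by limma 3.58.1 under R 4.3.3, using an intensity trend without a replicate block, and p-values were adjusted by Benjamini-Hochberg. Fold changes are on that scale, which understates the change of low genes. Calls needed an adjusted p below 0.05 with a log2 fold change beyond 0.6 in size, and the pausing index was tested as the difference of the log2 values. edgeR 4.0.16 and DESeq2 1.42.0 on the recovered reads were alternatives. Nothing in the labels says that the pools were prepared apart, beyond their being separate pools of mice, so p-values measure the spread between these libraries, which may be partly technical, and read numbers limit precision by counting error only. The activity cutoff was applied on the deposited scale. Coordinates and promoter windows are those of RefSeq on GRCm38.p6, the build called mm10.

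The members, role groups, pathway genes, second list and markers were chosen with earlier results of these data known. All members called in either region are given with every library, as are the 3 with the highest WT density in each region and those nearest the activity cutoff. Of the second list the 6 called genes with the largest gene body change are named. *Ifi27*, 8 pathway genes, 4 genes of the second list and 3 markers (*Adgre1*, *S100a8* and *Hbb-bt*) had no row and were not analysed here. Single values of some listed genes that are not members are not reported here, although the counts and sums of their lists include them.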

Additional observations from a re-analysis of the deposited data

How the results depend on the processing

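The gene body count of 25 members called up stayed within 1.5 times under every alternative but 1: without a filter on activity it was 5, and the cause was not tested. The promoter-proximal count of 35 was 16 when each region was scaled by median-of-ratios, 16 with TMM scaling, and 0 without a filter, where limma called 0 members although 29 had an unadjusted p under 0.05. Leaving out 1 library gave 9 to 33 members at the promoter-proximal region, 21 to 28 in the gene body, and 0 to 9 for the pausing index. The pausing index count of 0 became 1 with genes active in every library, 1 with the activity cutoff set for a smaller total of reads on genes and 3 with a pseudocount of 10. The gene body count called down was 0 throughout, except that it was 1 (*Stat2*) with no threshold on the fold change. The 4 gene body calls lost under some alternative were *Irf7*, *Oas2* and *Samd9l* without KO1, *Oas2* without WT1, and *Psmb8* without KO1, KO2 or WT1, with a pseudocount of 10, and in edgeR and DESeq2. No called member changed sign under any alternative. Of the 25 members called in the gene body, 21 were called under every alternative that kept the filter, the fits without 1 library included, and of the 35 called at the promoter-proximal region 7 were (*Bst2*, *Gbp3*, *Gbp7*, *Ifit1*, *Ifit2*, *Rtp4* and *Xaf1*).

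Same-numbered libraries did not deviate together (correlation of deviations -0.11 at promoter-proximal regions and 0.02 in gene bodies over 12705 genes), so the labels' numbers were not taken to pair them. With the replicate number as a block, 28 members were called up at the promoter-proximal region, 26 in the gene body and 0 for the pausing index. A crossed replicate block, added after seeing the data, gave 39, 25 and 8. Depth limits the promoter-proximal values of members with few reads there, such as *Oas3* with 2 to 8 reads in a library.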
